A study of Mus musculus with 12 samples.

Results

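The genes described here are 51 mouse genes of the lysosome, of its proton pump and of autophagy, followed in mIMCD3 cells, an inner medullary collecting duct line of the mouse kidney. They were taken by symbol from a list drawn up with earlier results of these data known, with no threshold on a measured value, and all 51 were found among the 47642 genes of the deposited RNA-seq table. The table holds 12 libraries, 4 each of wild-type cells (Wt), of *Pkd1*-/- cells and of *Pkd2*-/- cells, which model autosomal dominant polycystic kidney disease. *Pkd1*-/- cells were made with CRISPR and carry deletions of 44.9 and 44.8 kb at chr17:24550055-24594963 and chr17:24550106-24594903. *Pkd2*-/- cells were made with TALEN and lack 12.6 kb at chr5:104478281-104490878. All cells, Wt included, descend from a line that carries the early region of the virus SV40, and no group received a drug. Each mutant is 1 clone, RNA was taken 4 days after full confluency, and the 4 libraries of a genotype come from separate dishes of the same line. The spread between libraries, and every p-value below, therefore leaves out the variation between clones, and an effect of the deleted gene cannot be told apart from a property of the clone.

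Lysosomes break down material delivered by endocytosis and by autophagy, in which a double membrane closes around cytoplasm and fuses with the lysosome. Their enzymes need acid, which the vacuolar proton pump (V-ATPase) supplies: a cytosolic V1 sector splits ATP and a V0 sector in the membrane passes the protons. Tfeb, Tfe3 and Mitf are related transcription factors that bind E-box letters in front of many of these genes. In the collecting duct, the specialised intercalated cells secrete acid with V-ATPases that contain kidney-type subunits.

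Normalized counts are reads per gene divided by a size factor of the library, and 1 read was worth 0.8858 to 1.1277 of them. The libraries summed to 25966273 to 28027792 normalized counts, an estimated 23190203 to 30338916 reads on genes. *Pkd1* had 682 to 883 normalized counts in Wt and 30 to 49 in *Pkd1*-/- libraries. *Pkd2* had 3438 to 4467 in Wt and 3855 to 4135 in *Pkd2*-/- libraries, and since the deletion takes only part of the gene, this count does not check the *Pkd2*-/- labels. All 10 markers of collecting duct epithelium were present, with sums of 71959 to 79500 in Wt, 71645 to 73366 in *Pkd1*-/- and 82101 to 84718 in *Pkd2*-/- libraries. At an adjusted p-value under 0.05 (limma), 0 rose and 4 fell in *Pkd1*-/-, and 8 rose and 1 fell in *Pkd2*-/- cells. Of all genes averaging 10 or more, 16.7% rose and 16.8% fell in the first comparison, and 25.7% and 27.3% in the second. *Gata3* had 176 to 248 in Wt, 42 to 56 in *Pkd1*-/- and 294 to 430 in *Pkd2*-/- libraries. *Aqp2*, the water channel that defines principal cells, was at 0 in all 12 libraries. The 7 principal cell markers summed to 965 to 1071 in Wt, 378 to 465 in *Pkd1*-/- and 305 to 324 in *Pkd2*-/- libraries. Most of each sum came from *Scnn1g*, a subunit of the epithelial sodium channel (876 to 988, 249 to 347 and 243 to 265). Of the 4 principal cell markers tested, 1 rose and 1 fell in *Pkd1*-/-, and 0 rose and 2 fell in *Pkd2*-/- cells. Unlike *Scnn1g*, *Hsd11b2* lay above every Wt library in all 4 *Pkd1*-/- libraries. In all 4 *Pkd2*-/- libraries it lay below every Wt library. Of 7 intercalated cell markers, *Foxi1*, *Kit* and *Atp6v1g3* were at 0 in every library, and the list summed to 0 to 6. Of 7 leukocyte markers, *Adgre1*, *Itgam* and *Tyrobp* were at 0 in every library. The list summed to 893 to 1000 in Wt, 428 to 652 in *Pkd1*-/- and 732 to 827 in *Pkd2*-/- libraries. *Csf1r*, a growth factor receptor of macrophages, made up most of this sum (828 to 941, 381 to 587 and 663 to 774). The part of these markers in the members' changes was not tested. Markers of fibroblasts and endothelium summed to 4 to 77. In bulk RNA, fewer cells of a type and less RNA per cell cannot be told apart.

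Of the 51 genes, 50 averaged 10 normalized counts or more and were tested. *Atp6v0d2*, a V0 subunit known from osteoclasts, was at 0 in all 12 libraries, which allows up to 3 counts per library. Per kb of exon, the highest levels in Wt were those of *Lamp1* (13200 normalized counts per kb), *Psap* (11400), *Gabarap* (7990), *Ctsd* (6170) and *Sqstm1* (5200). The lowest were those of *Mitf* (2.91) and of 3 kidney-type pump subunits, *Atp6v0a4* (7.24), *Atp6v1c2* (8.62) and *Atp6v1b1* (13.0). Replicates lay close together: among members with a mean of at least 100, the median coefficient of variation was 4.8% in Wt, 3.6% in *Pkd1*-/- and 4.6% in *Pkd2*-/- libraries.

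Members rose and fell in each comparison. In *Pkd1*-/- against Wt, 11 rose and 9 fell at an adjusted p-value under 0.05 (limma, adjusted over all 18552 tested genes), where 27.1% of all tested genes were called, 13.6% higher and 13.5% lower. In *Pkd2*-/- against Wt, 10 rose and 17 fell, against a background of 42.3%, 20% higher and 22.3% lower. Between the mutants, 12 were higher and 19 lower in *Pkd2*-/- than in *Pkd1*-/- cells, where 46.3% of all genes were called. Among genes with a mean of at least 10, the level all 50 tested members reach, the background was 16.7% higher and 16.8% lower in *Pkd1*-/-, 25.7% and 27.3% in *Pkd2*-/-, and 27.8% and 29.5% between the mutants. Read against these shares, the members' 22% higher and 18% lower in *Pkd1*-/- and 20% and 34% in *Pkd2*-/- cells lie near what all genes show. The median log2 fold change of the members was 0.00 in *Pkd1*-/- and -0.07 in *Pkd2*-/-, beside 0.01 and -0.01 for all tested genes. All 4 mutant libraries lay above all 4 Wt libraries for 11 members and below them for 9 in *Pkd1*-/- cells, where 13.5% and 13.6% of all genes did so, and for 11 and 15 members in *Pkd2*-/- cells, where 17.4% and 19.8% did. Between the mutants, 12 members were higher and 20 lower in all 4 *Pkd2*-/- libraries, beside 19.8% and 22% of all genes.

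Most of the changes were small. In each comparison with Wt, 45 of 50 members changed by less than 0.5 on the log2 scale, called or not, as did 85.2% of all genes averaging 10 or more in *Pkd1*-/- and 76.5% in *Pkd2*-/- cells. With the further threshold of a log2 fold change of at least 1, 2 members rose and 0 fell in *Pkd1*-/- cells (background 6.24%, 2.96% higher and 3.28% lower), and 2 rose and 2 fell in *Pkd2*-/- cells (background 9.62%, 3.24% higher and 6.38% lower). Between the mutants, 1 was higher and 3 were lower in *Pkd2*-/- cells (background 11.8%, 4.53% higher and 7.23% lower). The changes against Wt belonged to 4 genes, the cathepsin *Ctsc* and the pump subunits *Atp6v1b1*, *Atp6v1c2* and *Atp6v0a4*. Both comparisons use the same 4 Wt libraries, so their values are not independent of each other.

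**Figure D1:**
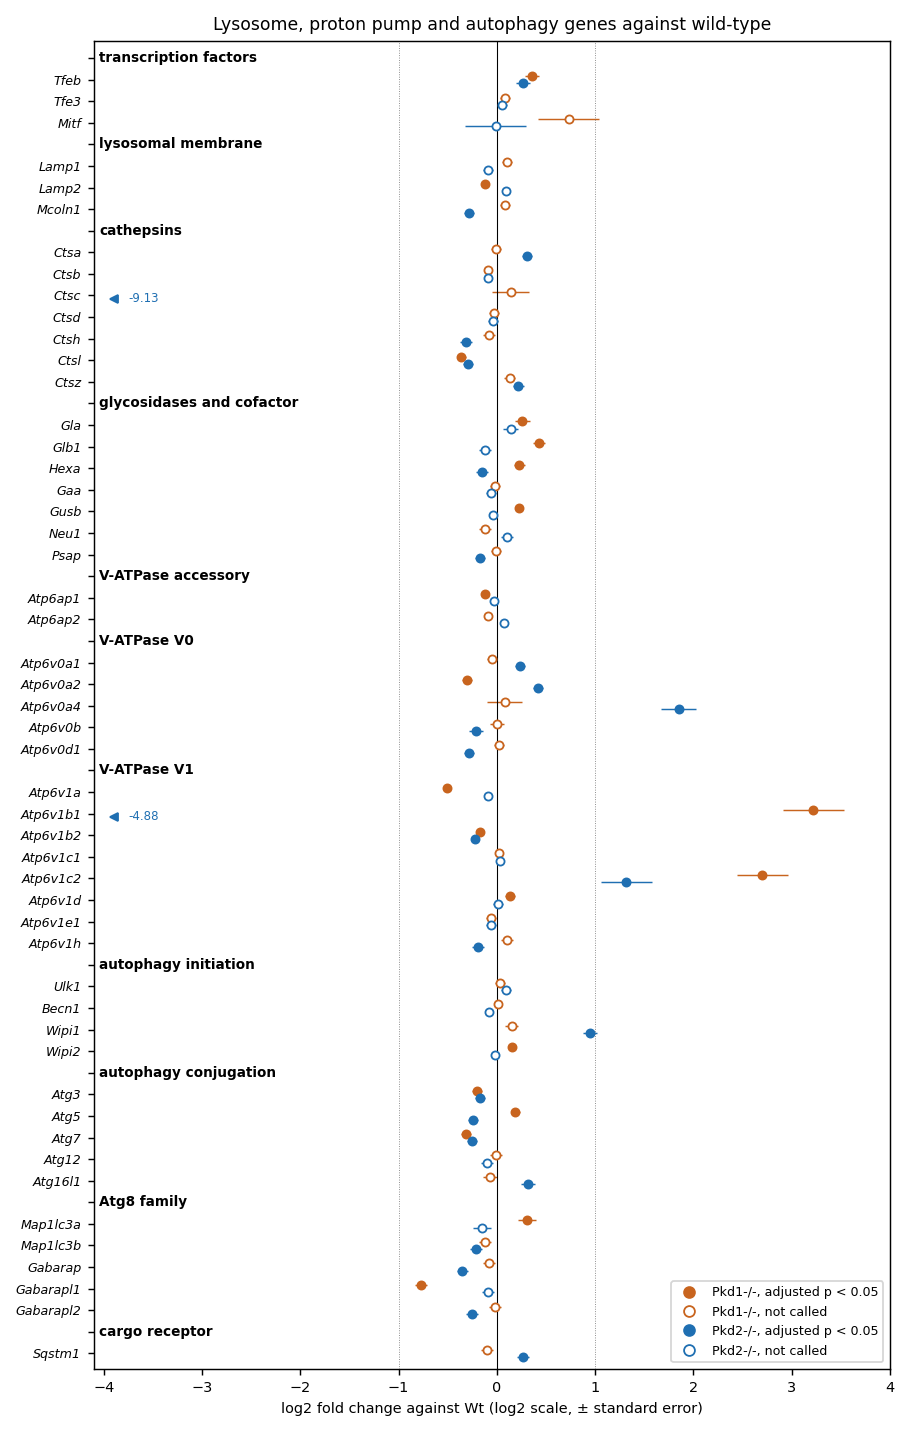
Log2 fold change against Wt (x axis, ± standard error) of the 50 tested members, grouped by role, for *Pkd1*-/- (orange) and *Pkd2*-/- cells (blue); filled points had an adjusted p-value under 0.05, and arrowheads with a printed value lie beyond the axis. Most points lie within 0.5 of 0, and the points beyond it belong to *Ctsc*, *Atp6v1a*, *Atp6v1b1*, *Atp6v1c2*, *Atp6v0a4*, *Wipi1*, *Gabarapl1* and, without a call, *Mitf*.

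*Tfeb*, which drives lysosomal gene expression, rose in both mutants. It had 455, 458, 420 and 388 normalized counts in Wt, 570, 552, 553 and 535 in *Pkd1*-/- and 546, 465, 551 and 510 in *Pkd2*-/- libraries. Every mutant library was above every Wt library. The log2 fold changes were 0.36 ± 0.07 (SE, adjusted p = 0.000957) and 0.27 ± 0.07 (adjusted p = 0.00646), and the difference between the mutants did not pass (-0.10 ± 0.07, adjusted p = 0.318). *Tfe3*, its more abundant relative, had 1384, 1386, 1364 and 1366 in Wt, 1406, 1490, 1498 and 1414 in *Pkd1*-/- and 1374, 1353, 1450 and 1514 in *Pkd2*-/- libraries, with log2 fold changes of 0.08 ± 0.05 and 0.05 ± 0.05 that did not pass. *Mitf*, best known from pigment cells, was low throughout, at 19, 9, 24 and 20 in Wt, 28, 29, 36 and 24 in *Pkd1*-/- and 25, 16, 20 and 10 in *Pkd2*-/- libraries. Its difference of 0.73 ± 0.31 in *Pkd1*-/- cells did not pass (adjusted p = 0.0955).

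E-box letters stood in front of many members. RefSeq promoter windows (GRCm38.p6, 250 bases before to 50 bases after a start) were at hand for 40 of the 51 genes. The letters CACGTG, which read the same on both strands, were found for 14 of these 40 (35.0%), beside 8.09% of all 27025 genes with a window and 11.8% of the 9575 with a mean of at least 10. Of 98 genes of the same systems outside the 51 with a window, 20 (20.4%) had them. The longer TCACGTGA contains the shorter motif and also reads the same on both strands. It was found for 1.12% and 2.3% of the 2 wider sets and for 7.14% of those 98 genes. Of the 40 members, 7 (17.5%) had it. The 30 bases around each of these are shown because they are the letters that Tfeb and its relatives are known to bind, with the motif in capitals, on the gene's strand and 5′ to 3′:
Mcoln1: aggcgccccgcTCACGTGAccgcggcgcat
Ctsa: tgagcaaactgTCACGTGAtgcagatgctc
Ctsd: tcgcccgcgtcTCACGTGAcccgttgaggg
Gla: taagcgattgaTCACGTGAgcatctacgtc
Atp6v0d1: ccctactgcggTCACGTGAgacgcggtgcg
Atp6v1a: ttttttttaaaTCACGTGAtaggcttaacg
Atg3: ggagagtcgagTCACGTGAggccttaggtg
They lie at chr8:3500462-3500491 (+) for *Mcoln1*, chr2:164833749-164833778 (+) for *Ctsa*, chr7:142387908-142387937 (-) for *Ctsd*, chrX:134601215-134601244 (-) for *Gla*, chr8:105566050-105566079 (-) for *Atp6v0d1*, chr16:44139373-44139402 (-) for *Atp6v1a* and chr16:45158746-45158775 (+) for *Atg3*. The first capital is at position -46, -13, -99, -228, -4, -132 and -72 from the annotated start, in that order.

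Among members with these letters, calls went both ways. Of the 14 with CACGTG, 3 rose and 4 fell in *Pkd1*-/- and 1 rose and 7 fell in *Pkd2*-/- cells, with median log2 fold changes of 0.00 and -0.15. Of the 26 without it in their window, 7 rose and 3 fell, and 7 rose and 7 fell, with medians of 0.06 and 0.00. Of all genes averaging 10 or more, 16.7% rose and 16.8% fell in *Pkd1*-/- and 25.7% and 27.3% in *Pkd2*-/- cells. No such share was computed for all genes with the letters, and the difference between these groups was not tested. Among the 7 genes whose letters are printed above, *Atp6v1a* was the lowest in *Pkd1*-/- cells (-0.51) and *Ctsa* the highest in *Pkd2*-/- cells (0.31). A match is no measure of binding, and none was made here.

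The lysosomal membrane genes changed little. *Lamp1*, a major glycoprotein of the lysosomal membrane, ranged from 33596 to 36940 in Wt, from 36295 to 39979 in *Pkd1*-/- and from 31986 to 33730 in *Pkd2*-/- libraries. Neither log2 difference from Wt passed (0.10 ± 0.05 and -0.09 ± 0.05), while the mutants differed by -0.19 ± 0.05 (adjusted p = 0.00259). *Lamp2*, the receptor of chaperone-mediated autophagy, had 10187, 9910, 10068 and 9935 in Wt and 9661, 9243, 9023 and 8864 in *Pkd1*-/- libraries, a fall of -0.12 ± 0.04 (adjusted p = 0.029). This call was lost without Wt replicate 1 or 3 or *Pkd1*-/- replicate 2, 3 or 4 (adjusted p from 0.0581 to 0.0922). *Mcoln1*, a calcium channel of the lysosome, had 2100, 2354, 2275 and 2061 in Wt and 1805, 1721, 1934 and 1779 in *Pkd2*-/- libraries. All 4 *Pkd2*-/- libraries were below the Wt libraries, and the log2 fold change was -0.28 ± 0.05 (adjusted p = 0.000331), against 0.08 ± 0.05 in *Pkd1*-/- cells.

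Among the 7 cathepsins, *Ctsc* was near 0 in *Pkd2*-/- cells. *Ctsc* encodes dipeptidyl peptidase 1, which activates serine proteases of the granules of immune cells, and lies at chr7:88278085-88310888 (+). It had 642, 709, 640 and 668 normalized counts in Wt and 784, 741, 689 and 726 in *Pkd1*-/- libraries, but 0, 0, 0 and 1 in *Pkd2*-/- libraries. The *Pkd2*-/- sum was 0.0376% of the Wt sum (exact 95% interval of the ratio from 0.000952% to 0.21%, counting error only). The fitted log2 fold change, whose size depends on the added count of 1, was -9.13 ± 0.19 (adjusted p = 4.88e-17). The exact permutation test of 4 libraries against 4 gave p = 0.0286, two-sided, the smallest value this design can reach. In *Pkd1*-/- cells the difference was 0.14 ± 0.19 and did not pass. This SE pools the spread of all 12 libraries, the near-0 *Pkd2*-/- values included. It is not the spread of Wt and *Pkd1*-/- libraries alone. Over the alternatives given at the end, limma's adjusted p ranged from 0.11 to 0.77. Of its neighbours, chosen after their values were seen, the noncoding gene *Gm44751* at chr7:88311478-88315864 fell from 17, 17, 24 and 18 in Wt to 0 in all 4 *Pkd2*-/- libraries. *Rps13-ps2*, which starts at base 88530446, did not pass (230, 206, 185 and 198 in Wt and 228, 232, 236 and 159 in *Pkd2*-/- libraries, 0.05 ± 0.13).

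The other cathepsins moved by less than 0.4. *Ctsl*, an endopeptidase, fell in both mutants, from 11538, 12458, 12228 and 11501 in Wt to 9555, 9385, 9316 and 8995 in *Pkd1*-/- and 9376, 10168, 10241 and 9218 in *Pkd2*-/- libraries. Neither mutant group overlapped Wt, and the log2 fold changes were -0.36 ± 0.05 (adjusted p = 9.57e-06) and -0.29 ± 0.05 (adjusted p = 4.77e-05). *Ctsa*, the protective protein that holds galactosidase and neuraminidase together, had 6316, 7408, 6950 and 6383 in Wt, 6898, 6586, 6758 and 6502 in *Pkd1*-/- and 8561, 8442, 8516 and 7897 in *Pkd2*-/- libraries. It rose in *Pkd2*-/- cells (0.31 ± 0.05, adjusted p = 7.63e-05), and the mutants differed by 0.32 ± 0.05 (adjusted p = 3.84e-05). Its exons share 495 bases with *Pltp* on the opposite strand, whose log2 fold change there was 0.89, and whether counting used the strand is not stated. *Ctsz* also rose in *Pkd2*-/- cells (0.22 ± 0.06), and *Ctsh*, an aminopeptidase, fell there, from 667 to 746 in Wt to 553 to 608 (-0.31 ± 0.06, adjusted p = 0.000684). *Ctsb* and *Ctsd*, abundant cysteine and aspartic proteases of the lysosome, had differences of -0.09 ± 0.04 and -0.03 ± 0.05 in *Pkd1*-/- and of -0.09 ± 0.04 and -0.04 ± 0.05 in *Pkd2*-/- cells, none of which passed.

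Of the 7 genes of glycosidases and their cofactor, 4 rose and 0 fell in *Pkd1*-/- cells, and 0 rose and 2 fell in *Pkd2*-/- cells, a difference in counts that was not tested. Of all genes averaging 10 or more, 16.7% rose and 16.8% fell in the first comparison and 25.7% and 27.3% in the second. *Glb1*, the lysosomal beta-galactosidase, had 819, 849, 880 and 860 in Wt, 1078, 1134, 1197 and 1191 in *Pkd1*-/- and 805, 830, 784 and 730 in *Pkd2*-/- libraries. All *Pkd1*-/- libraries were above all others, with a log2 fold change of 0.43 ± 0.06 (adjusted p = 1.19e-05), and *Pkd2*-/- cells were lower than *Pkd1*-/- cells by -0.55 ± 0.06 (adjusted p = 2.3e-07). Its exons share 165 bases with *Tmppe* on the same strand, whose log2 fold changes were -0.29 and 0.42. *Gusb*, beta-glucuronidase, had 1478, 1576, 1546 and 1532 in Wt, 1805, 1840, 1760 and 1782 in *Pkd1*-/- and 1533, 1464, 1504 and 1477 in *Pkd2*-/- libraries. It rose by 0.23 ± 0.04 in *Pkd1*-/- cells (adjusted p = 0.000616). *Gla*, alpha-galactosidase, rose there by 0.26 ± 0.08 (adjusted p = 0.0219), a call that was lost without Wt replicate 1 or 2 or *Pkd1*-/- replicate 2 (adjusted p from 0.0686 to 0.086).

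*Hexa*, a subunit of hexosaminidase, was called in opposite directions. It had 2562, 2765, 2744 and 2476 in Wt, 3171, 3157, 3056 and 3016 in *Pkd1*-/- and 2474, 2285, 2619 and 2121 in *Pkd2*-/- libraries. The *Pkd1*-/- libraries were all above Wt (0.23 ± 0.06, adjusted p = 0.00578), whereas the *Pkd2*-/- libraries overlapped Wt and the call was narrow (-0.15 ± 0.06, adjusted p = 0.0453) and lost without Wt replicate 1, 2 or 3 or *Pkd2*-/- replicate 2 or 4 (adjusted p from 0.052 to 0.166). The call in *Pkd2*-/- cells was also lost with all libraries kept. Limma's adjusted p was 0.0611 without the low-value filter, 0.0973 with only these 2 genotypes fitted and 0.101 without the variance trend. The mutants differed by -0.39 ± 0.06 (adjusted p = 2.39e-05). *Psap*, whose protein is cut into the saposins that present lipids to these enzymes, fell in *Pkd2*-/- cells (-0.17 ± 0.05, adjusted p = 0.0058). *Gaa*, acid alpha-glucosidase, and *Neu1*, neuraminidase, did not pass against Wt, with differences from -0.12 to 0.10.

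Among the 51 genes, the largest rises were those of kidney-type subunits of the V-ATPase. *Atp6v1b1* encodes the B1 subunit of the catalytic sector, which in the kidney is typical of intercalated cells, and lies at chr6:83742990-83758855 (+). It had 65, 76, 58 and 29 normalized counts in Wt, 528, 437, 544 and 543 in *Pkd1*-/- and 2, 1, 1 and 0 in *Pkd2*-/- libraries. The 3 groups did not overlap. The log2 fold change was 3.22 ± 0.31 in *Pkd1*-/- cells (adjusted p = 1.87e-07) and -4.88 ± 0.31 in *Pkd2*-/- cells (adjusted p = 2.67e-10). The *Pkd2*-/- sum was 1.75% of the Wt sum (exact 95% interval from 0.474% to 4.55%, counting error only). The exact permutation p was 0.0286 for each mutant.

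*Atp6v1c2*, the C2 subunit that helps hold the sectors together, rose in both mutants. It had 9, 18, 22 and 26 in Wt, 122, 115, 135 and 108 in *Pkd1*-/- and 31, 53, 58 and 44 in *Pkd2*-/- libraries, again without overlap between any groups. The log2 fold changes were 2.70 ± 0.26 (adjusted p = 2.4e-07) and 1.32 ± 0.26 (adjusted p = 0.000455), and *Pkd2*-/- cells were below *Pkd1*-/- cells by -1.38 ± 0.26 (adjusted p = 0.000252). Its exons share 50 bases, 2.3% of their length, with *Pdia6* on the opposite strand, a gene with a mean of 12800 normalized counts and log2 fold changes of 0.22 and 0.13. *Atp6v0a4*, the a4 subunit of the membrane sector that is mutated in distal renal tubular acidosis, had 44, 33, 31 and 36 in Wt, 31, 44, 32 and 47 in *Pkd1*-/- and 125, 122, 138 and 143 in *Pkd2*-/- libraries. It rose in *Pkd2*-/- cells by 1.85 ± 0.18 (adjusted p = 8.16e-08), and its *Pkd1*-/- libraries overlapped Wt (0.08 ± 0.18). Its exons share 259 bases with *D630045J12Rik* on the same strand, whose log2 fold changes were 0.59 and 0.56. The intercalated cell markers named above, *Foxi1*, *Kit* and *Atp6v1g3*, stayed at 0 in the libraries where these subunits were high.

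**Figure D2:**
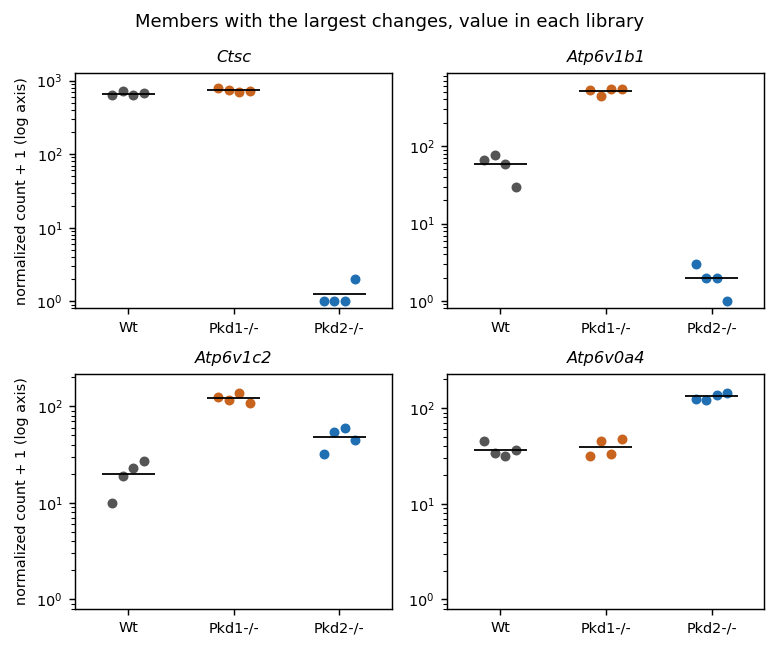
Normalized count + 1 (y axis, log scale) in each library (points) of the 4 members that passed a log2 fold change of 1 against Wt, by genotype; black lines are group means and replicates are offset sideways. *Ctsc* is at 0 or 1 count in the *Pkd2*-/- libraries, *Atp6v1b1* is high in *Pkd1*-/- and near 0 in *Pkd2*-/- libraries, *Atp6v1c2* is higher in both mutants, and *Atp6v0a4* is higher in *Pkd2*-/- libraries.

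Beside the widely expressed subunits, the kidney-type subunits stayed minor. Per kb of exon, *Atp6v1b1* made up 0.995% of the B subunit level in Wt, 9.25% in *Pkd1*-/- and 0.0206% in *Pkd2*-/- cells, and *Atp6v1b2* the remainder. *Atp6v1c2* made up 0.826%, 4.97% and 1.97% of the C subunit level. *Atp6v0a4* made up 0.558%, 0.594% and 1.62% of the level of the 4 a subunits, of which *Tcirg1* is the remaining gene. These shares of RNA do not measure subunits in assembled pumps.

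The widely expressed subunits moved less. *Atp6v1a*, the catalytic A subunit, had 9486, 9027, 9835 and 9314 in Wt, 6886, 6595, 6420 and 6619 in *Pkd1*-/- and 8817, 9113, 8682 and 8856 in *Pkd2*-/- libraries. It fell in *Pkd1*-/- cells by -0.51 ± 0.04 (adjusted p = 2.17e-08), and the *Pkd2*-/- difference of -0.09 ± 0.04 did not pass. *Atp6v1b2*, the common B subunit, fell in both, from 6689 to 6996 in Wt to 5797 to 6444 (-0.17 ± 0.04) and 5693 to 6130 (-0.22 ± 0.04). *Atp6v0a2*, which is known from endosomes and the Golgi, was called in opposite directions, with 1513, 1596, 1630 and 1699 in Wt, 1195, 1346, 1327 and 1359 in *Pkd1*-/- and 2196, 2154, 2081 and 2205 in *Pkd2*-/- libraries. No groups overlapped, and the log2 fold changes were -0.30 ± 0.05 (adjusted p = 0.000255) and 0.42 ± 0.05 (adjusted p = 2.84e-06), a difference between mutants of 0.73 ± 0.05 (adjusted p = 1.65e-09).

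In the membrane sector, all 5 tested V0 members were called in *Pkd2*-/- cells, 3 higher and 2 lower, beside 25.7% higher and 27.3% lower among all genes averaging 10 or more. *Atp6v0a1* rose from 3460, 3539, 3629 and 3846 in Wt to 4336, 4517, 3915 and 4380 (0.24 ± 0.05), while *Atp6v0d1*, the stalk subunit, fell from 4939, 5286, 4909 and 4796 to 4322, 4069, 4209 and 3795 (-0.28 ± 0.05). *Atp6v0b*, a proteolipid of the ring, fell by -0.21 ± 0.07 (adjusted p = 0.0186), which did not pass without Wt replicate 2 or 3 or *Pkd2*-/- replicate 4 (adjusted p from 0.0605 to 0.0818). Of the remaining V1 members, *Atp6v1h* fell in *Pkd2*-/- cells (-0.19 ± 0.06), *Atp6v1d* rose narrowly in *Pkd1*-/- cells (0.13 ± 0.05, adjusted p = 0.0471, but from 0.0671 to 0.14 without Wt replicate 1, 3 or 4 or *Pkd1*-/- replicate 1, 2 or 3), and *Atp6v1c1* and *Atp6v1e1* had differences from -0.06 to 0.03 that did not pass. Of the accessory subunits, *Atp6ap1* was at the threshold in *Pkd1*-/- cells (-0.12 ± 0.04, adjusted p = 0.05 after rounding) and did not pass without any of its libraries but Wt replicate 1 (adjusted p from 0.0567 to 0.161), and *Atp6ap2*, the renin receptor, did not pass against Wt.

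Autophagy begins with the Ulk1 kinase and the Becn1 lipid kinase complex, whose lipid is read by the Wipi proteins. *Ulk1* and *Becn1* had differences of 0.03 ± 0.05 and 0.01 ± 0.04 in *Pkd1*-/- and of 0.09 ± 0.05 and -0.08 ± 0.04 in *Pkd2*-/- cells, none of which passed. *Becn1* shares 43.9% of its exon bases with *Cntd1* on the opposite strand, a gene with a mean of 18.9. *Wipi1* had 451, 365, 427 and 422 in Wt, 457, 460, 483 and 448 in *Pkd1*-/- and 760, 843, 757 and 857 in *Pkd2*-/- libraries. It rose in *Pkd2*-/- cells by 0.95 ± 0.07 (adjusted p = 4.61e-09), and the *Pkd1*-/- difference of 0.15 ± 0.07 did not pass. The gene beside it on chromosome 11 is *Arsg*, a lysosomal sulfatase that was looked at after its values were seen. The interval of *Arsg* ends at base 109573330, and that of *Wipi1* spans 109573331 to 109611967. *Wipi1* is on the minus strand, so its 3′ end, not its start, lies beside *Arsg*. *Arsg* had 26, 19, 14 and 35 in Wt and 215, 244, 234 and 227 in *Pkd2*-/- libraries (3.31 ± 0.21, adjusted p = 3.39e-10). *Wipi2*, the form that recruits the conjugation machinery, rose in *Pkd1*-/- cells (0.15 ± 0.04, adjusted p = 0.00627).

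Conjugation genes attach Atg8 proteins to the growing membrane, and 4 of 5 were called in 1 mutant or both, as were 64.7% of all genes averaging 10 or more. *Atg7*, the activating enzyme, fell in both, from 1641, 1658, 1587 and 1635 in Wt to 1377, 1320, 1245 and 1313 in *Pkd1*-/- and 1320, 1396, 1427 and 1346 in *Pkd2*-/- libraries. No mutant library overlapped Wt (-0.31 ± 0.05, adjusted p = 6.85e-05, and -0.25 ± 0.05, adjusted p = 0.000361). *Atg3*, the transfer enzyme, also fell in both (-0.20 ± 0.05 and -0.17 ± 0.05), the latter not without Wt replicate 1 (-0.128, adjusted p = 0.0629). *Atg5* was called in opposite directions, with 1521, 1395, 1464 and 1495 in Wt, 1777, 1689, 1590 and 1637 in *Pkd1*-/- and 1264, 1192, 1317 and 1186 in *Pkd2*-/- libraries. No groups overlapped, and the log2 fold changes were 0.19 ± 0.05 (adjusted p = 0.0129) and -0.24 ± 0.05 (adjusted p = 0.000994). *Atg16l1*, which places the complex on the membrane, rose in *Pkd2*-/- cells from 892 to 1035 in Wt to 1092 to 1295 (0.32 ± 0.07, adjusted p = 0.00122), and *Atg12* did not pass in either mutant.

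In the Atg8 family, 1 rose and 1 fell in *Pkd1*-/- and 0 rose and 3 fell in *Pkd2*-/- cells, where 27.3% of all genes averaging 10 or more fell. *Gabarapl1* had 5834, 6652, 6093 and 5599 in Wt, 3744, 3431, 3390 and 3577 in *Pkd1*-/- and 5716, 5416, 6113 and 5406 in *Pkd2*-/- libraries. The *Pkd1*-/- libraries were below all others (-0.77 ± 0.06, adjusted p = 4.98e-09), and the mutants differed by 0.68 ± 0.06 (adjusted p = 9.93e-09). *Gabarap* had 15220, 15424, 14038 and 14271 in Wt, 15495, 13180, 13820 and 13258 in *Pkd1*-/- and 11946, 11826, 12136 and 10474 in *Pkd2*-/- libraries, and fell in the latter (-0.35 ± 0.06, adjusted p = 8.51e-05). *Gabarapl2* (-0.25 ± 0.06) and *Map1lc3b* (-0.21 ± 0.06), the LC3 gene most used as a marker of autophagosomes, also fell in *Pkd2*-/- cells. *Map1lc3a* rose in *Pkd1*-/- cells, from 603, 677, 692 and 573 in Wt to 880, 820, 725 and 722 (0.31 ± 0.09, adjusted p = 0.0169), but did not pass without Wt replicate 1 or 4 or *Pkd1*-/- replicate 1 or 2 (adjusted p from 0.0504 to 0.0626). Per kb, *Gabarapl1* made up 22.7%, 15.2% and 25.6% of the family's level in Wt, *Pkd1*-/- and *Pkd2*-/- cells, and *Gabarap* 60.6%, 65.3% and 57.1%.

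*Sqstm1*, which encodes p62, the receptor that carries ubiquitinated cargo into autophagosomes, rose in *Pkd2*-/- cells. It had 16406, 19047, 18043 and 16347 in Wt, 16823, 16251, 16278 and 15664 in *Pkd1*-/- and 22161, 20277, 21972 and 19681 in *Pkd2*-/- libraries. All *Pkd2*-/- libraries were above all others, with 0.27 ± 0.06 against Wt (adjusted p = 0.000571). Its exons share 17.3% of their bases with *Mrnip* on the opposite strand, a gene with a mean of 311. RNA levels do not measure the flow of material through autophagy.

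**Figure D3:**
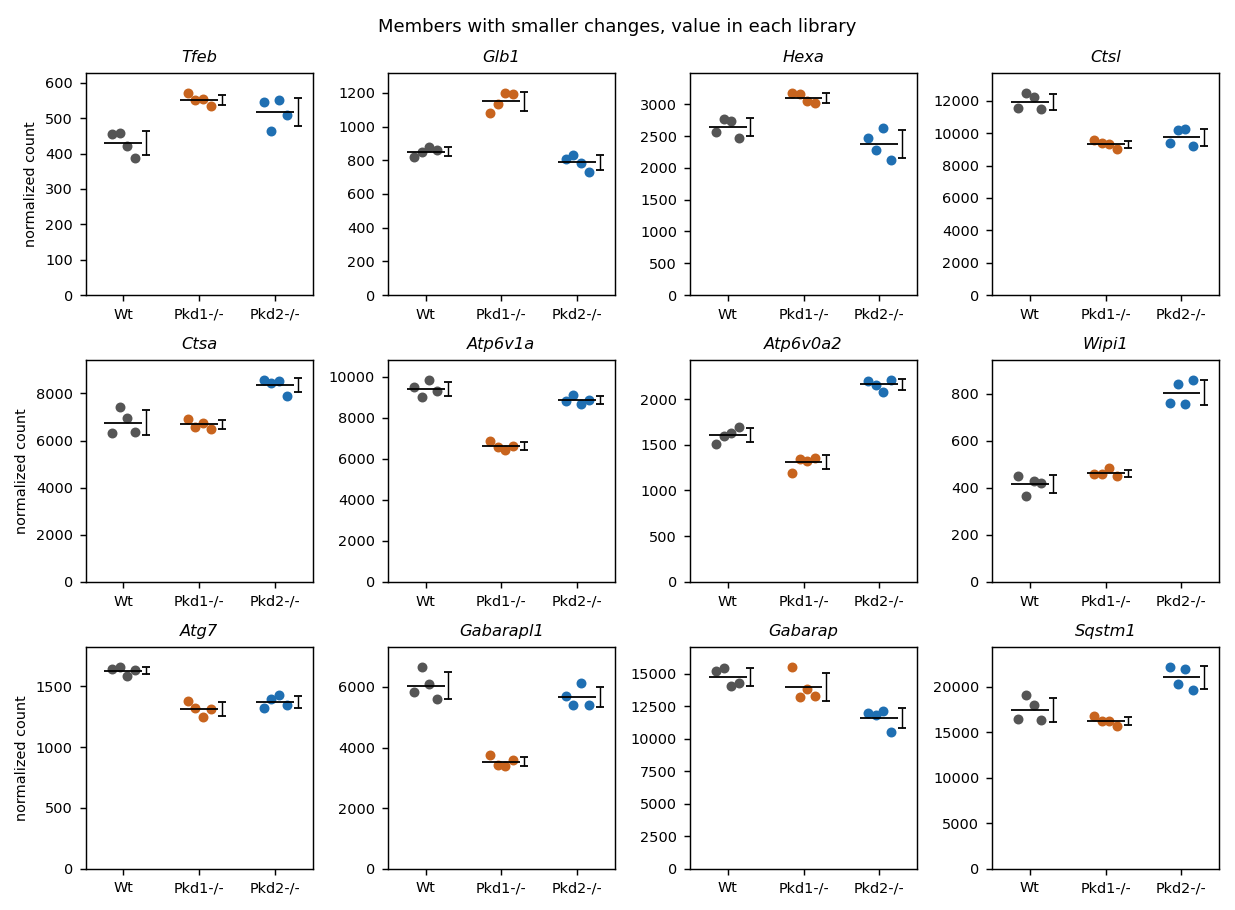
Normalized counts (y axis, from 0) in each library (points) of 12 members with smaller changes, by genotype; horizontal lines are group means and bars beside them the SD of 4 libraries. *Gabarapl1* and *Atp6v1a* are lower in *Pkd1*-/- libraries, *Wipi1*, *Ctsa* and *Sqstm1* are higher in *Pkd2*-/- libraries, *Ctsl* and *Atg7* are lower in both mutants, and *Atp6v0a2* is lower in 1 and higher in the other.

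Some small changes had the sign of those of the genes around them on the chromosome, and others went against it. Each member was set beside the median log2 fold change of its neighbours, the genes that averaged 10 or more within 5 Mb on each side. This median lay beyond 0.1 in either direction for 7 of 50 members in *Pkd1*-/- and for 14 of 50 in *Pkd2*-/- cells, and over all members it ranged from -0.43 to 0.27 and from -0.29 to 0.35. Where it lay beyond 0.1, the member had the same sign in 6 of 7 cases in *Pkd1*-/- and in 8 of 14 in *Pkd2*-/- cells. These cases are not independent, since members near each other, such as *Atp6v1a* and *Atg3* or *Atp6v0a2* and *Gusb*, share neighbours. *Atp6v1a* and *Atg3* lie near each other on chromosome 16, where the neighbours' medians in *Pkd1*-/- cells were -0.42 (23 genes) and -0.43 (26 genes), beside -0.51 and -0.20 for the genes themselves. *Atp6v0a2* on chromosome 5 had neighbours at -0.35 (110 genes) in *Pkd1*-/- cells, beside its own -0.30, but at 0.02 in *Pkd2*-/- cells, beside its own 0.42. For *Ctsa* and *Ctsz* on chromosome 2, the neighbours in *Pkd2*-/- cells were at 0.35 and 0.25, beside 0.31 and 0.22. The 6 members that went against their neighbours in *Pkd2*-/- cells were *Map1lc3a* (-0.15 beside 0.29), *Gla* (0.14 beside -0.29), *Atg3* (-0.17 beside 0.17), *Atp6v1a* (-0.09 beside 0.23), *Atp6v1c1* (0.03 beside -0.12) and *Atp6v0a4* (1.85 beside -0.25). *Wipi2* in *Pkd1*-/- cells lay below its neighbours' 0.27 at 0.15, and *Gusb* stood against its neighbours' -0.25 at 0.23.

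The change of *Atp6v1a* in *Pkd1*-/- cells, -0.51, lay beside a neighbours' median of -0.42. Changes against Wt larger than this were not matched in size by the neighbourhood as a whole. Around *Atp6v1b1* the medians were -0.01 and -0.04 (86 genes), around *Gabarapl1* -0.02 in *Pkd1*-/- cells (69 genes), around *Ctsc* -0.13 in *Pkd2*-/- cells (35 genes) and around *Wipi1* 0.15 in *Pkd2*-/- cells (53 genes). The part of the neighbourhood in the members' changes was not tested.

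**Figure D4:**
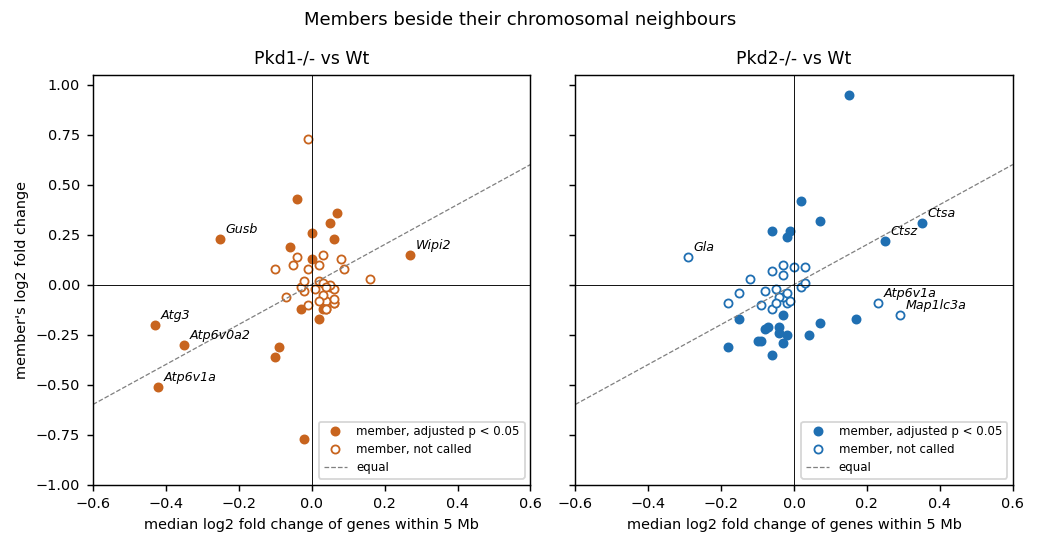
Log2 fold change of each member (y axis) beside the median for its neighbours within 5 Mb (x axis, log2 fold change), in *Pkd1*-/- (left) and *Pkd2*-/- cells (right); filled points had an adjusted p-value under 0.05, the dashed line marks equal values, and members beyond 1 on the y axis are not drawn. *Atp6v1a*, *Atp6v0a2* and *Atg3* on the left and *Ctsa* and *Ctsz* on the right share the sign of a neighbourhood that moved, and *Gusb* on the left and *Map1lc3a*, *Gla* and *Atp6v1a* on the right have the opposite sign.

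Genes of the same systems outside the 51 also changed little for the most part. Within 0.5 on the log2 scale were 106 of 112 tested in *Pkd1*-/- and 94 of 112 in *Pkd2*-/- cells. The shares were 75.9% and 68.5% for all tested genes, and 85.2% and 76.5% for those averaging 10 or more, as most of the 112 do. These were 118 genes of the lysosome, pump and autophagy by list, and of those tested 11 rose and 26 fell in *Pkd1*-/- and 29 rose and 43 fell in *Pkd2*-/- cells. In *Pkd1*-/- cells that is 9.82% higher and 23.2% lower, beside 13.6% and 13.5% of all tested genes and 16.7% and 16.8% of those averaging 10 or more. In *Pkd2*-/- cells it is 25.9% and 38.4%, beside 20% and 22.3% of all tested genes and 25.7% and 27.3% of those averaging 10 or more. Both sets of shares apply to the single lists that follow. Of 29 tested hydrolases, 2 rose and 9 fell in *Pkd1*-/- and 8 rose and 10 fell in *Pkd2*-/- cells. *Ctsf*, a cysteine cathepsin, had 75, 68, 60 and 53 in Wt, 0, 0, 0 and 1 in *Pkd1*-/- and 0 in all 4 *Pkd2*-/- libraries. Its *Pkd1*-/- sum was 0.391% of the Wt sum (exact 95% interval from 0.00985% to 2.2%), and in *Pkd2*-/- cells it was at least 21.3-fold lower, taking 3 counts per library for 0. *Ctso* had 67, 88, 91 and 100 in Wt, 222, 270, 257 and 255 in *Pkd1*-/- and 12, 16, 14 and 39 in *Pkd2*-/- libraries (1.54 ± 0.26 and -2.18 ± 0.26). *Lipa*, the acid lipase, fell in both mutants (-0.48 ± 0.05 and -0.85 ± 0.05), where its neighbours' medians were 0.04 and 0.41.

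Upstream of Tfeb, the Rag GTPases and the Flcn-Fnip complex pass amino acid signals to mTORC1 on the lysosome. Of 13 tested genes there, 2 rose and 4 fell in *Pkd1*-/- and 4 rose and 6 fell in *Pkd2*-/- cells. *Rragd*, which is itself known as a target of Tfeb and its relatives, had 53, 56, 52 and 69 in Wt, 30, 46, 33 and 46 in *Pkd1*-/- and 451, 485, 440 and 415 in *Pkd2*-/- libraries. The *Pkd2*-/- libraries were far above all others (2.95 ± 0.15, adjusted p = 1.49e-11), and the *Pkd1*-/- libraries were all below Wt (-0.57 ± 0.15, adjusted p = 0.00812). *Fnip1* rose in *Pkd2*-/- cells (0.69 ± 0.09), and *Rragb*, at 0 to 3 in Wt, had 15, 4, 7 and 4 in *Pkd1*-/- libraries (1.91 ± 0.52).

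Of 25 further membrane and transport genes, 1 rose and 8 fell in *Pkd1*-/- and 4 rose and 11 fell in *Pkd2*-/- cells. *Scarb2*, the lysosomal receptor of glucocerebrosidase, fell in *Pkd1*-/- cells by -1.0 ± 0.06, where its neighbours' median was -0.37. *Cln3*, a lysosomal membrane protein gene of Batten disease, fell in *Pkd2*-/- cells by -1.26 ± 0.06, and *Tpcn1*, an endolysosomal cation channel, rose there by 0.55 ± 0.07. Of 38 further autophagy genes, 5 rose and 5 fell in *Pkd1*-/- and 12 rose and 13 fell in *Pkd2*-/- cells. The cargo receptor *Optn* had 460, 405, 437 and 424 in Wt and 966, 874, 965 and 945 in *Pkd2*-/- libraries (1.12 ± 0.06, adjusted p = 4.03e-11), where its neighbours' median was 0.42 (30 genes). The low *Atg9b* also rose there (1.16 ± 0.30). *Bnip3*, a receptor for mitochondria, was lower in *Pkd2*-/- cells (-1.0 ± 0.08) and higher in *Pkd1*-/- cells (0.31 ± 0.08). Of 7 further tested pump subunits, 1 rose and 0 fell in *Pkd1*-/- cells (*Atp6v1g1*, 0.26 ± 0.05), and in *Pkd2*-/- cells 1 rose (*Tcirg1*, 0.32 ± 0.06) and 3 fell, *Atp6v0e* furthest (-0.38 ± 0.05).

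**Figure D5:**
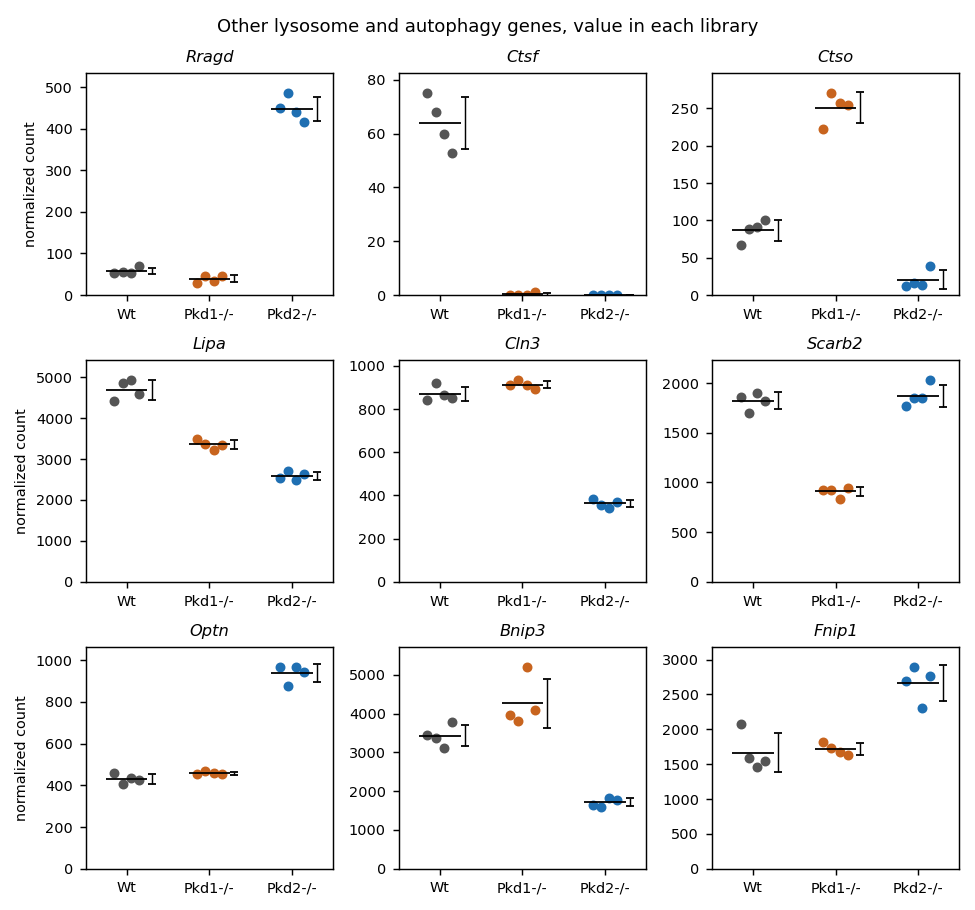
Normalized counts (y axis, from 0) in each library (points) of 9 lysosome and autophagy genes outside the 51 members, by genotype; horizontal lines are group means and bars the SD of 4 libraries. *Ctsf* is at 0 or 1 in both mutants, *Rragd*, *Optn* and *Fnip1* are higher in *Pkd2*-/- libraries, *Ctso* is higher in *Pkd1*-/- and lower in *Pkd2*-/- libraries, and *Scarb2* is lower in *Pkd1*-/- libraries.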

How the data were processed

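RNA of 12 mIMCD3 libraries was sequenced by the authors, who used Trim Galore for trimming, HISAT2 for alignment to mm10 (GRCm38) and htseq-count for counts per gene, then scaled by DESeq2 size factors. What they deposited are scaled scores rounded to whole numbers, called normalized counts here, so methods for read counts were not run. StringTie and mm9, also in the submitters' notes, belong to the study's transcript assembly and its comparison with annotation, which were not used here. Strand use in counting is not given in the sources used here.

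Symbols, positions and exon lengths came from GENCODE M21 (47223 of 47642 identifiers matched). Log2(normalized count + 1) of 18552 genes averaging 1 or more was fitted with limma 3.58.1 (R 4.3.3; lmFit, eBayes with a variance trend), with all 12 libraries in 1 model and Benjamini-Hochberg adjustment within each comparison, after a check on simulated data. Two-sided exact permutation tests compared 4 libraries with 4. Reads per library were estimated from values that rounding skips or doubles. Intervals take normalized counts as reads and include counting error alone, because molecules were not tagged and PCR copies count as reads. Exact intervals are at 95%.

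The members and lists were chosen with earlier results of these data known. Named outside the members were *Pkd1*, *Pkd2*, named neighbours and at most 3 called genes per further list, by largest change; all members with a log2 fold change of 1, the transcription factors and about 20 others were shown by library. No 2 libraries were identical (0 pairs), and 0 sample columns were unused. Alternatives were other pseudocounts, filters, scalings, variance models, a replicate block, a fit of only the 2 genotypes compared, a fold threshold and leaving out each replicate.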

Additional observations from a re-analysis of the deposited data

Results flagged for a closer look

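In 4 members the mutants were called on opposite sides of Wt, and *Pkd2*-/- differed from *Pkd1*-/- cells in limma's test of that difference. Of all genes averaging 10 or more, 16.7% rose and 16.8% fell in *Pkd1*-/- and 25.7% and 27.3% in *Pkd2*-/- cells. The share of all genes called on opposite sides was not computed, so the 4 members are not set apart from other genes. The log2 differences of *Pkd2*-/- against *Pkd1*-/- cells were -0.39 for *Hexa* (adjusted p = 2.39e-05), 0.73 for *Atp6v0a2* (adjusted p = 1.65e-09), -8.10 for *Atp6v1b1* (adjusted p = 1.2e-13) and -0.43 for *Atg5* (adjusted p = 1.81e-06). The *Hexa* fall in *Pkd2*-/- cells was narrow, and the neighbours of *Atp6v0a2* were at -0.35 in *Pkd1*-/- cells.

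Of 148 groups of 4 libraries, 9 held a library farther from its replicates than Dixon's 95% critical value allows, and chance gives about 1 in 20. *Atg3* (1923 normalized counts) and *Atg12* (2360) were highest in Wt replicate 1, and *Atg12* (1947) and *Wipi2* (5451) lowest in *Pkd1*-/- replicate 3. In *Pkd1*-/- libraries *Atp6ap2* was highest in replicate 1 (5167) and *Atp6v1b1* lowest in replicate 2 (437). In *Pkd2*-/- libraries *Atp6ap1* was lowest (3891) and *Ulk1* highest (3853) in replicate 4, and *Atp6v1c1* highest in replicate 3 (6191). Every *Pkd1*-/- library, replicate 2 included, had more *Atp6v1b1* than any Wt or *Pkd2*-/- library.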

How the results depend on the processing

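Under all alternatives, replicates left out included, 15 of 20 calls were kept in *Pkd1*-/- against Wt, 24 of 27 in *Pkd2*-/- against Wt and 29 of 31 between the mutants. Lost somewhere were *Atp6ap1*, *Atp6v1d*, *Gla*, *Lamp2* and *Map1lc3a* in the first comparison, *Atg3*, *Atp6v0b* and *Hexa* in the second, and *Atp6v0b* and *Atp6v1d* in the third, all with log2 changes under 0.4. All of these but *Gla* and *Atg3* were also lost under some alternative that kept every library. Gained somewhere were *Ctsz*, *Atp6v1a* and *Becn1* against Wt and *Atp6ap1*, *Becn1* and *Mitf* between the mutants. The large changes of *Ctsc*, *Atp6v1b1*, *Atp6v1c2*, *Atp6v0a4*, *Wipi1* and *Gabarapl1* were among the calls kept. Leaving out 1 replicate gave 8 to 11 members higher and 7 to 8 lower in *Pkd1*-/-, 10 higher and 15 to 17 lower in *Pkd2*-/-, and 12 to 13 higher and 17 to 20 lower between the mutants. With a log2 fold change of at least 1, the counts were 2 and 0, 2 and 2, and 1 and 3.

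The labels give all genotypes the replicate numbers 1 to 4. The correlation of deviations between same-numbered libraries was -0.073 to 0.2 over 12 pairs, against -0.199 to 0.114 for other pairs. The 2 values over 0.1 both involved replicate 4 of *Pkd2*-/- cells, paired with replicate 4 of Wt (0.2) and of *Pkd1*-/- cells (0.167). Replicate 4 of Wt and of *Pkd1*-/- cells correlated at 0.088. Whether replicates 4 share a source of variation was not tested. With the replicate block, 11 members were higher and 8 lower in *Pkd1*-/-, 10 and 17 in *Pkd2*-/-, and 12 and 20 between the mutants. The block ended the call of *Atp6ap1* and added that of *Mitf* between the mutants.

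Changes of sign occurred only among members without a call. With libraries rescaled to the same upper quartile, the log2 difference turned to 0.002 for *Atg12*, 0.008 for *Atp6v0b* and 0.005 for *Psap* in *Pkd1*-/-, to -1.7e-05 for *Atp6v1c1* and -0.024 for *Atp6v1d* in *Pkd2*-/-, and to -0.006 for *Atg3*, -0.034 for *Atp6v1c1* and -0.037 for *Atp6v1e1* between the mutants; the cause was not tested. Leaving out 1 replicate in turn, the differences that crossed 0 in *Pkd1*-/- ranged from -0.032 to 0.044 (*Atg12*), -0.018 to 0.181 (*Atp6v0a4*), -0.058 to 0.054 (*Atp6v0b*), -0.016 to 0.056 (*Atp6v0d1*), -0.012 to 0.021 (*Becn1*), -0.046 to 0.031 (*Ctsa*), -0.057 to 0.008 (*Gaa*), -0.044 to 0.022 (*Psap*) and -0.004 to 0.07 (*Ulk1*). In *Pkd2*-/- they ranged from -0.017 to 0.031 (*Atp6v1d*) and -0.293 to 0.223 (*Mitf*), and between the mutants from -0.011 to 0.021 (*Atp6v1c1*), -0.039 to 0.062 (*Atp6v1e1*), -0.016 to 0.031 (*Ctsb*) and -0.031 to 0.012 (*Ctsd*). At this depth, genes as low as *Mitf* and the *Pkd2*-/- level of *Atp6v1b1* rest on few reads.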
